A study of Oryza sativa with 6 samples.

Results

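The copper miRNAs of rice were examined as the 8 known entries of the families miR397, miR398, miR408 and miR528 (osa-miR397a, osa-miR397b, osa-miR398a, osa-miR398b, osa-miR408-3p, osa-miR408-5p, osa-miR528-5p and osa-miR528-3p). All entries with these family numbers were taken, whatever their levels, from 464 known rice entries in a table of 1898 entries. The members were chosen with earlier results of these data known. Another 9 known entries whose longer family numbers begin with the same digits, such as miR3979 and miR3980, were left out. Small RNA of P15, the BPH15 introgression line that resists the brown planthopper (BPH), was compared with that of PC, the susceptible recipient line 9311. Both lines were sampled without insects (0 h) and after BPH nymphs had fed for 6 h and 48 h, with 1 library per line and time made from the pooled tissue of many seedlings. Feeding was started at different times and all plants were harvested together. The groups are P15-0, P15-6 and P15-48, and PC-0, PC-6 and PC-48. The labels name leaf sheath and the fourth leaf of plants 3 weeks old, and the methods name stems of younger seedlings, which a table of miRNAs cannot settle. P15 is a single line that carries wild-rice chromatin at BPH15 in the 9311 background, so BPH15 and other introgressed sequence cannot be told apart.

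Plants meet a shortage of copper by saving it for proteins they cannot do without. In Arabidopsis the transcription factor SPL7 switches on miR397, miR398 and miR408 when copper is low, and these miRNAs cleave the mRNAs of copper proteins that can be spared. miR397 targets laccases, the copper oxidases of lignin formation. miR398 targets the copper/zinc superoxide dismutases CSD1 and CSD2, which remove superoxide, together with their copper chaperone. miR408 targets plantacyanin and other small blue copper proteins as well as some laccases. miR528 is found in monocots only and targets ascorbate oxidase, a copper enzyme of the cell wall space whose activity shifts the balance of reactive oxygen. The targets of these 4 families thus include copper proteins that handle reactive oxygen or act in the cell wall.

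The mature sequences are shown because the counts were assigned by sequence and some members differ by 1 base. They are given 5′ to 3′ as the table has them, with T for U, and the seed (bases 2 to 8) is in capitals. The arms that act on targets come first and the partner (star) strands of miR408 and miR528 follow.
miR397a: tCATTGAGtgcagcgttgatg
miR397b: tTATTGAGtgcagcgttgatg
miR398a: tGTGTTCTcaggtcacccctt
miR398b: tGTGTTCTcaggtcgcccctg
miR408-3p: cTGCACTGcctcttccctggc
miR528-5p: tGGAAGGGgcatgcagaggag
miR408-5p: cAGGGATGaggcagagcatgg
miR528-3p: cCTGTGCTtgcctcttccatt

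All 8 are 21 nt long. miR398a and miR398b shared 1 seed and differed outside it by A15G and T21G, counted from the 5′ end with the base of miR398a first. miR397a and miR397b differed by C2T, which lies inside the seed. No other seed was shared. The 5 entries that begin with T belong to miR397, miR398 and miR528-5p, whereas both strands of miR408 and the star strand of miR528 begin with C.

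The copper miRNAs were scarce in every library. Levels are read counts and TPM, the count scaled to a common library size, from a library total that ranged between 1078716 reads (P15-48) and 1644065 (P15-6), with PC-0, PC-6 and PC-48 at 1343912, 1258734 and 1283295 and P15-0 at 1426058. This is the total behind TPM, and it is much smaller than the number of clean reads that the paper lists for each library. Together the 8 entries held 202, 128 and 156 reads in P15 at 0, 6 and 48 h and 144, 142 and 325 reads in PC, which is 0.00779% (P15-6) to 0.0253% (PC-48) of the library total. In TPM the sums were 142, 77.9 and 145 in P15 and 107, 113 and 253 in PC. The sum in PC-48 was the highest of the 6 libraries, and the sum in P15-6 the lowest. Where no read was found, the one-sided 95% limit is 3 reads, which ranged between 1.82 TPM (P15-6) and 2.78 TPM (P15-48). Intervals below are exact two-sided 95% counting intervals, which for miR397b at 0 reads reach 2.24 TPM in P15-6 and 2.93 TPM in PC-6, and they leave out the spread between plants and between library preparations.

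**Figure D1:**
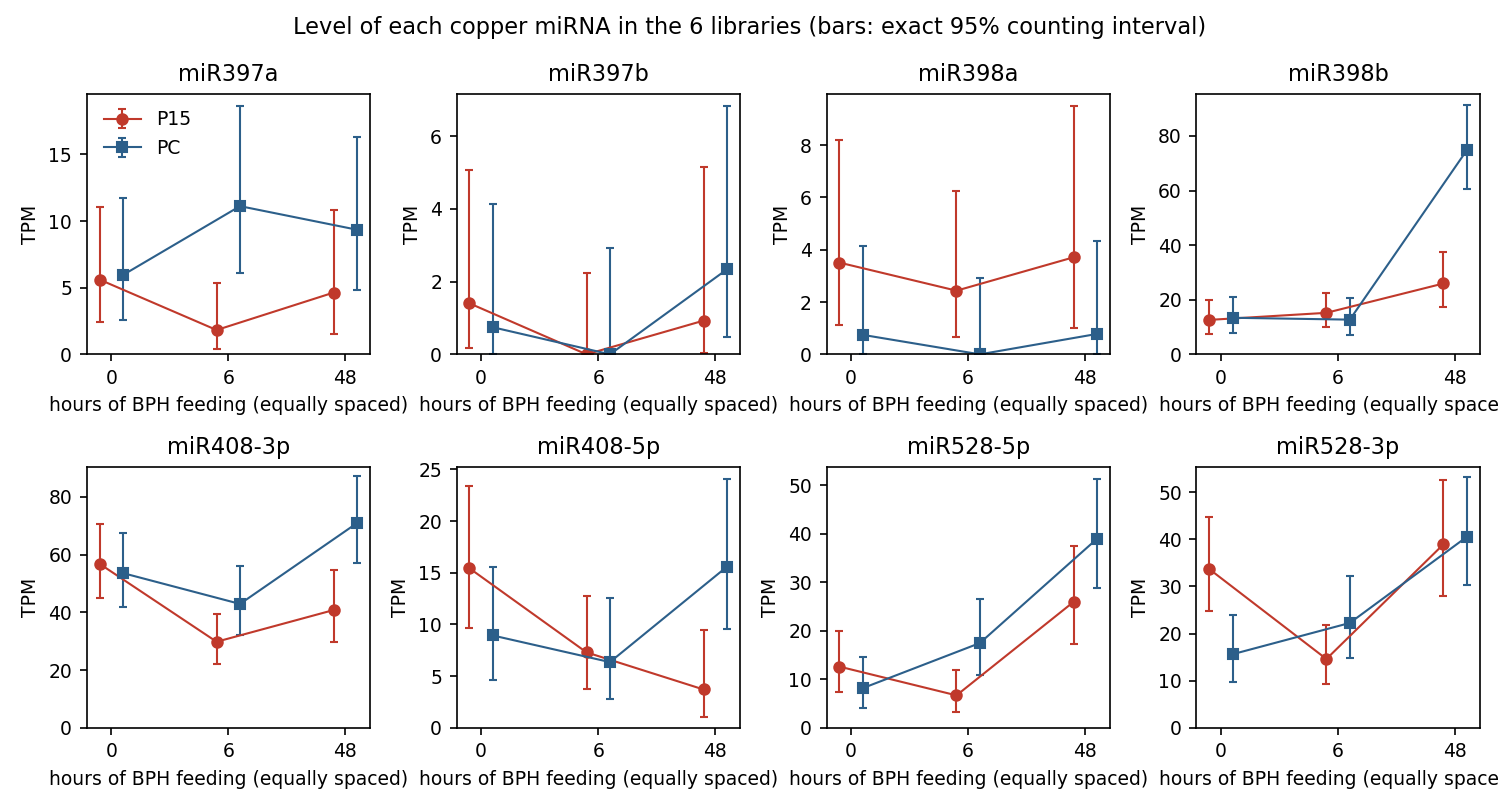
Level of each of the 8 copper miRNAs in TPM (vertical axes, linear, with a scale of their own for each miRNA) against hours of BPH feeding, with P15 as red circles, PC as blue squares and bars for the exact 95% counting interval. miR398b stands at 74.8 TPM in PC-48 and at or below 26.0 TPM in the other 5 libraries, and miR528-5p has its highest level in each line at 48 h.

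miR408-3p was the most abundant of the 8, with 391 reads over the 6 libraries and a median of 48.2 TPM (range 29.8 to 70.9). It ranked between 81st and 100th among the 337 distinct known sequences. miR528-3p followed with a median of 28.0 TPM (14.6 to 40.5), miR528-5p with 15.1 (6.69 to 39.0) and miR398b with 14.3 (12.6 to 74.8). miR408-5p had a median of 8.11 TPM (3.71 to 15.6) and miR397a 5.78 (1.82 to 11.1). miR398a and miR397b were near the limit of detection, with 15 and 7 reads in all. The ranges of neighbours overlapped over the libraries. Within libraries miR408-3p lay above miR528-3p, and miR528-3p above miR528-5p, in 6 of 6. The order of miR528-5p and miR398b was not settled, since miR528-5p was higher in 1 library, equal in 2 and lower in the rest. The widest swing between libraries belonged to miR397a (6.10-fold), miR398b (5.93-fold) and miR528-5p (5.82-fold) and the narrowest, among entries read in every library, to miR408-3p (2.38-fold).

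A miRNA was called in a comparison of 2 libraries at a change of at least 2-fold and an unadjusted P under 0.05 in edgeR's exact test with a dispersion of 0. This test weighs counting error only. It compares 2 libraries and not 2 conditions, so these differences have no check from replicate libraries. The paper reports stem-loop RT-PCR of some differentially expressed miRNAs in biological replicates, but its text does not name them. The words up-regulated and down-regulated are used below of called miRNAs.

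After 48 h of feeding, miR398b and miR528-5p were up-regulated in both lines. The calls in PC held under every alternative setting, whereas both calls in P15 were lost when scaled to clean reads and with a biological coefficient of variation of 0.2. miR398b, the regulator of the superoxide dismutases, had 18, 25 and 28 reads in P15 at 0, 6 and 48 h and 18, 16 and 96 reads in PC. These are 12.6, 15.2 and 26.0 TPM in P15 and 13.4, 12.7 and 74.8 TPM in PC. PC-48 stood apart from the other 5 libraries, which lay between 12.6 and 26.0 TPM. The ratio to 0 h was 2.06 (1.10 to 3.95) in P15-48/P15-0 and 5.59 (3.35 to 9.82) in PC-48/PC-0. At 6 h the level was close to that at 0 h, with ratios of 1.20 (0.631 to 2.34) in P15 and 0.949 (0.453 to 1.97) in PC, neither of which was called.

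miR528-5p, the regulator of ascorbate oxidase, had 18, 11 and 28 reads in P15 and 11, 22 and 50 reads in PC at 0, 6 and 48 h. In TPM this was 12.6, 6.69 and 26.0 in P15 and 8.19, 17.5 and 39.0 in PC. The reads of miR528-5p and miR398b were equal in P15-0 and in P15-48, although their sequences are unrelated. The ratio to 0 h was 2.06 (1.10 to 3.95) in P15-48/P15-0 and 4.76 (2.45 to 10.1) in PC-48/PC-0. At 6 h the point values lay on opposite sides of 1, at 0.530 (0.226 to 1.19) in P15 and 2.14 (0.992 to 4.88) in PC. Neither was called with the library totals, but the PC value was called with TMM and with median-of-ratios scaling.

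The star strand miR528-3p had 48, 24 and 42 reads in P15 and 21, 28 and 52 reads in PC at 0, 6 and 48 h. In TPM this was 33.7, 14.6 and 38.9 in P15 and 15.6, 22.2 and 40.5 in PC. It was up-regulated in PC-48/PC-0, at 2.59 (1.54 to 4.53) times, whereas P15-48/P15-0 gave 1.16 (0.746 to 1.79). In P15-6/P15-0 it was down-regulated to 0.434 (0.254 to 0.722) times its level at 0 h. This call was lost under each of the 3 other scalings (TMM, median-of-ratios and clean-read totals), which raise P15-6 relative to P15-0.

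miR408-3p, the regulator of plantacyanin, had 81, 49 and 44 reads in P15 and 72, 54 and 91 reads in PC at 0, 6 and 48 h. In TPM this was 56.8, 29.8 and 40.8 in P15 and 53.6, 42.9 and 70.9 in PC. No comparison called it, since all of its ratios lay within 2-fold. The paper, at the same thresholds, lists miR408-3p among the miRNAs that were differentially expressed in P15 only. The lowest ratio was that of P15-6/P15-0, at 0.525 (0.360 to 0.757), and that of P15-48/P15-0 was 0.718 (0.486 to 1.05). In PC the ratios were 0.801 (0.552 to 1.16) at 6 h and 1.32 (0.961 to 1.83) at 48 h.

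The star strand miR408-5p had 22, 12 and 4 reads in P15 and 12, 8 and 20 reads in PC at 0, 6 and 48 h. In TPM this was 15.4, 7.30 and 3.71 in P15 and 8.93, 6.36 and 15.6 in PC. It was down-regulated in P15-48/P15-0, to 0.240 (0.0602 to 0.708) times the level at 0 h, while PC-48/PC-0 gave 1.75 (0.813 to 3.92), which was not called. P15-48 had the lowest level of the 6 libraries and rests on 4 reads.

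miR397a, a laccase regulator, had 8, 3 and 5 reads in P15 and 8, 14 and 12 reads in PC at 0, 6 and 48 h. In TPM this was 5.61, 1.82 and 4.64 in P15 and 5.95, 11.1 and 9.35 in PC. The lines were nearly equal at 0 h, and PC was higher at both later times. None of the changes from 0 h was called, with ratios of 0.325 (0.0556 to 1.36) and 0.826 (0.213 to 2.86) in P15 and 1.87 (0.732 to 5.14) and 1.57 (0.590 to 4.43) in PC at 6 and 48 h. miR397b had 2, 0 and 1 reads in P15 and 1, 0 and 3 in PC, and changes in it were not detectable at this depth.

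Counted over all 8 members, 2 were up-regulated in P15-48/P15-0, where 2.1% of the 428 known miRNAs tested were, and 1 was down-regulated, where 4.67% were. In PC-48/PC-0 the number was 3 up-regulated, against 1.38% (6) of 434 known miRNAs, and 0 down-regulated, against 9.45% (41). In P15-6/P15-0 1 of 8 was down-regulated, against 13.9% of 432, so this share is near the background. In PC-6/PC-0 0 of 8 were called, against 7.71% of 428 in either direction. All 8 members had a log2 fold change above 0 in PC-48/PC-0, as did 46.5% of all known miRNAs tested, and the median was 1.08 for the 8 and -0.06 for all tested. Only the 3 up-regulated members had counting intervals there that left out a ratio of 1, and miR528-5p and miR528-3p are arms of 1 precursor. miR398a had 1 read in each of these libraries and miR397b 3 against 1, so the sign of either is not settled. Scaled to clean reads, 7 of the 8 stayed above 0. In P15-48/P15-0 the 8 divided evenly, with 4 above 0, and their median of -0.10 was close to that of all tested, -0.17. At 6 h the median was -1.0 in P15, where that of all tested was -0.61, and -0.20 in PC, against -0.06. Members at 0 reads enter the fitted medians at 6 h, and with the 3-read limit in their place, or left out where both libraries were at or under it, the medians became -0.93 in P15 (7 members) and 0.22 in PC (6 members). The known miRNAs include copies of 1 sequence that hold the same reads, whereas the 8 members all differ in sequence.

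The nutrient families of the same table moved another way in PC-48/PC-0. Of the miR395 entries, which act on sulfate assimilation, 16 of 18 were down-regulated (3 distinct sequences, median log2 fold change -1.27). Of the miR399 and miR827 entries, which act on phosphate balance, 5 of 8 were down-regulated (6 sequences, median -1.07), though 2 of 8 were with TMM (median -0.87) and 2 of 8 with median-of-ratios (median -0.99). Of all known miRNAs 9.45% were down-regulated there. None of either list was up-regulated there. The difference between the lists was not tested.

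**Figure D2:**
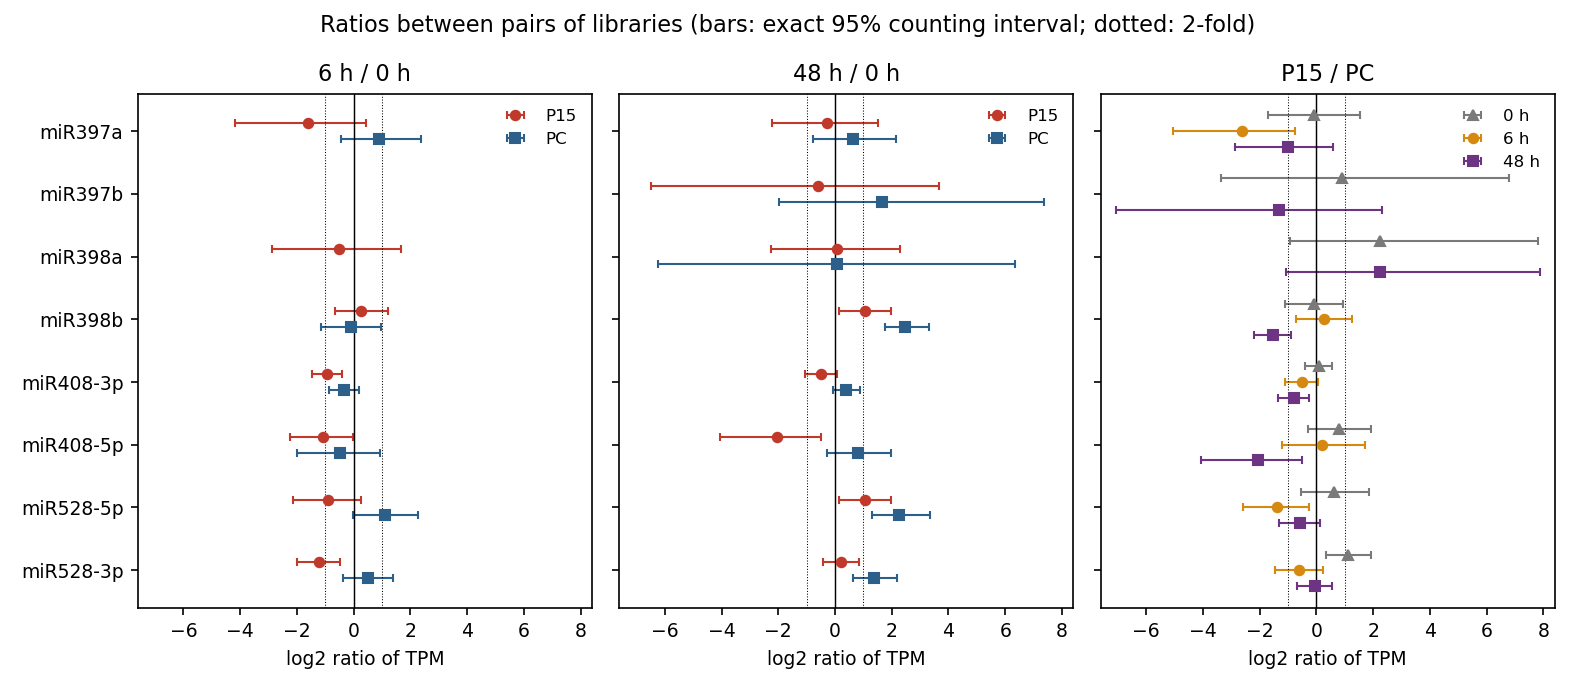
Log2 ratio of TPM for the 8 copper miRNAs (rows) at 6 h against 0 h and at 48 h against 0 h, with P15 as red circles and PC as blue squares, and for P15 against PC at 0 h (grey triangles), 6 h (orange circles) and 48 h (purple squares). Bars are exact 95% counting intervals, dotted lines mark 2-fold, pairs with a library at 0 reads are not drawn, and at 48 h miR398b and miR528-5p lie right of 0 in both lines.

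Across both lines, edgeR's quasi-likelihood test of an additive model (time and line, TMM, 6 libraries, 2 residual degrees of freedom) could test 6 of the 8. miR397b and miR398a fell below its filter on low counts. For 48 h against 0 h it called miR398b, with a log2 effect of 2.04 (standard error 0.40, adjusted p = 1.08e-04), and miR528-5p, with 1.75 (standard error 0.41, adjusted p = 0.00225). Both were higher at 48 h in each of the 2 lines. Of all 281 miRNAs tested, 4 (1.42%) were called higher at 48 h, and the remaining ones were miR1320-3p and miR166c-5p. miR528-3p had a log2 effect of 0.87 (standard error 0.37, adjusted p = 0.145). The calls rest on particular libraries and settings. edgeR's adjusted p for miR398b and miR528-5p was 0.0553 each without P15-0, 0.844 each without PC-0, and 0.366 and 0.168 without PC-48. It was 0.125 and 0.126 without TMM and 0.202 each with identical entries taken once, and DESeq2 gave 0.315 and 0.623. The log2 effects under these settings stayed above 0, between 1.02 and 2.31 for miR398b and between 0.93 and 2.53 for miR528-5p.

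For 6 h against 0 h, edgeR called 0 of the 6 members tested (0 at an unadjusted p under 0.05), against 0.356% of all known miRNAs tested, and DESeq2 called 0 (0 unadjusted). For P15 against PC over the 3 times it also called 0 of 6, against 5.34% of all, with 1 member, miR397a, at an unadjusted p under 0.05. The effect of miR397a was -1.08 on the log2 scale (standard error 0.47, adjusted p = 0.256 by edgeR). P15 was lower at 6 h and 48 h, whereas each line had 8 reads at 0 h. DESeq2 gave no adjusted p for miR398a and miR397b and called 0 of the other 6 members, against 11 of the 464 known miRNAs it fitted. Of all 8 members, 0 had an unadjusted p under 0.05 with DESeq2. The line effect of miR398b was -0.54 (standard error 0.33, adjusted p = 0.458), and its sign depended on the library left out. edgeR called it at -1.11 without P15-6 (adjusted p = 0.0213) and at -1.11 without PC-6 (adjusted p = 0.0227), while it was 0.20 without P15-48 (adjusted p = 0.889) and 0.20 without PC-48 (adjusted p = 0.878).

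Between the lines, 1 member was called at 0 h, 2 at 6 h and 2 at 48 h, and a member called at 1 time and not at another is not shown to differ between the times. Before feeding, miR528-3p was called higher in the P15-0/PC-0 comparison, with 48 against 21 reads and a ratio of 2.15 (1.27 to 3.79), a call that was lost with a coefficient of variation of 0.2. This was 1 of 8 members, and 4.6% of the 435 known miRNAs tested were called higher in P15 there. miR398b (18 reads in P15-0 and 18 in PC-0, ratio 0.942, 0.463 to 1.92), miR408-3p (81 and 72 reads, 1.06, 0.762 to 1.48) and miR397a (8 and 8 reads) were not called. The interval of miR408-3p leaves out ratios above 1.48 and below 0.762, while those of the scarcer members are wider.

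At 6 h, 2 of the 7 members tested were called lower in the P15-6/PC-6 comparison, where 7.23% of 429 known miRNAs were. miR528-5p had 11 against 22 reads, a ratio of 0.383 (0.168 to 0.824), and miR397a had 3 against 14 reads, a ratio of 0.164 (0.0302 to 0.588). The call of miR528-5p was lost with median-of-ratios scaling and also when scaled to clean reads. The median log2 fold change of all known miRNAs with at least 20 reads was -0.32 in this comparison with the library totals, -0.07 with TMM and 0.07 with the clean reads.

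At 48 h, 2 members were down-regulated in P15-48/PC-48, and 1.17% (5 of 426) of all known miRNAs were. miR398b had 28 against 96 reads, 26.0 against 74.8 TPM, a ratio of 0.347 (0.219 to 0.533). miR408-5p had 4 against 20 reads, a ratio of 0.238 (0.0591 to 0.710). Both calls held under all 5 alternative settings. miR408-3p was lower without reaching 2-fold, with 44 against 91 reads and a ratio of 0.575 (0.392 to 0.833). miR528-5p (28 against 50 reads) had a ratio of 0.666 (0.404 to 1.08) and miR528-3p (42 against 52 reads) one of 0.961 (0.624 to 1.47). miR397a (5 against 12 reads) had a ratio of 0.496 (0.137 to 1.51). Of the 8 members 1, miR398a, had a log2 fold change above 0, as did 54.2% of all known miRNAs tested, and the medians were -0.90 and 0.16.

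The few reads of miR398a differed from those of miR398b in their pattern over the lines, though no comparison called miR398a. miR398a had 5, 4 and 4 reads in P15 and 1, 0 and 1 reads in PC at 0, 6 and 48 h. Its level in P15 was higher at 3 of 3 times. Summed over the times this was 13 against 2 reads, a ratio of 6.09 (1.38 to 55.6), a sum that was formed after the counts had been seen. miR398b had 71 against 130 reads in the same sums, a ratio of 0.512 (0.378 to 0.688), and 96 of the 130 came from PC-48. Without 48 h its sums were 43 against 34 reads, a ratio of 1.07 (0.668 to 1.73), and those of miR398a were 9 against 1, a ratio of 7.63 (1.06 to 334). Of the 3 times, the counting interval of miR398b left out 1 at 48 h only. That of miR398a included 1 at 0 h (ratio 4.71, 0.527 to 223) and at 48 h (4.76, 0.471 to 234). At 6 h PC had 0 reads of miR398a, so no ratio was formed. The pair differs by the 2 bases given above, and the sources used here do not give the mismatches allowed in assigning reads.

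The response to feeding, taken as the log2 ratio to 0 h in P15 minus that in PC, was below 0 for most members. At 48 h it was -1.44 (-2.56 to -0.32) for miR398b, whose log2 ratios were 1.04 in P15 and 2.48 in PC. For miR408-5p it was -2.86 (-4.71 to -1.01), for miR528-3p -1.16 (-2.11 to -0.22) and for miR408-3p -0.88 (-1.57 to -0.19). miR528-5p gave -1.21 (-2.48 to 0.06), which reaches 0. Among the 251 known miRNAs with at least 20 reads in some library of the comparison, members included, the median difference was 0.03. Of these, 0 had a lower value than miR408-5p, and 2, miR408-5p itself and miR529a, a lower one than miR398b. The standard error was 0.94 for miR408-5p, which had 4 reads in P15-48, and 0.57 for miR398b, so these ranks carry wide counting error. Counting intervals are narrow for abundant miRNAs, and the interval lay below 0 for 55 (21.9%) of the 251.

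At 6 h the difference was -2.01 (-3.51 to -0.51) for miR528-5p, -1.71 (-2.79 to -0.63) for miR528-3p and -2.52 (-4.81 to -0.23) for miR397a. Both arms of miR528 had ratios below 1 in P15 and above 1 in PC. miR398b gave 0.34 (-0.96 to 1.65). The median of 250 known miRNAs was -0.24, and 102 (40.8%) had intervals below 0. Under TMM these 3 intervals stayed below 0, whereas that of miR397a reached 0 with median-of-ratios (-2.10, -4.39 to 0.19) and when scaled to clean reads (-2.21, -4.50 to 0.08). At 48 h the 4 members named above stayed below 0 under all 3 other scalings, and miR528-5p joined them under TMM, at -1.43 (-2.70 to -0.16), and when scaled to clean reads, at -1.48 (-2.75 to -0.20). Under these 2 scalings the share of known miRNAs with intervals below 0 was also larger, at 36.7% with TMM and 39.4% with clean reads, and the median difference was -0.19 and -0.24. 

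**Figure D3:**
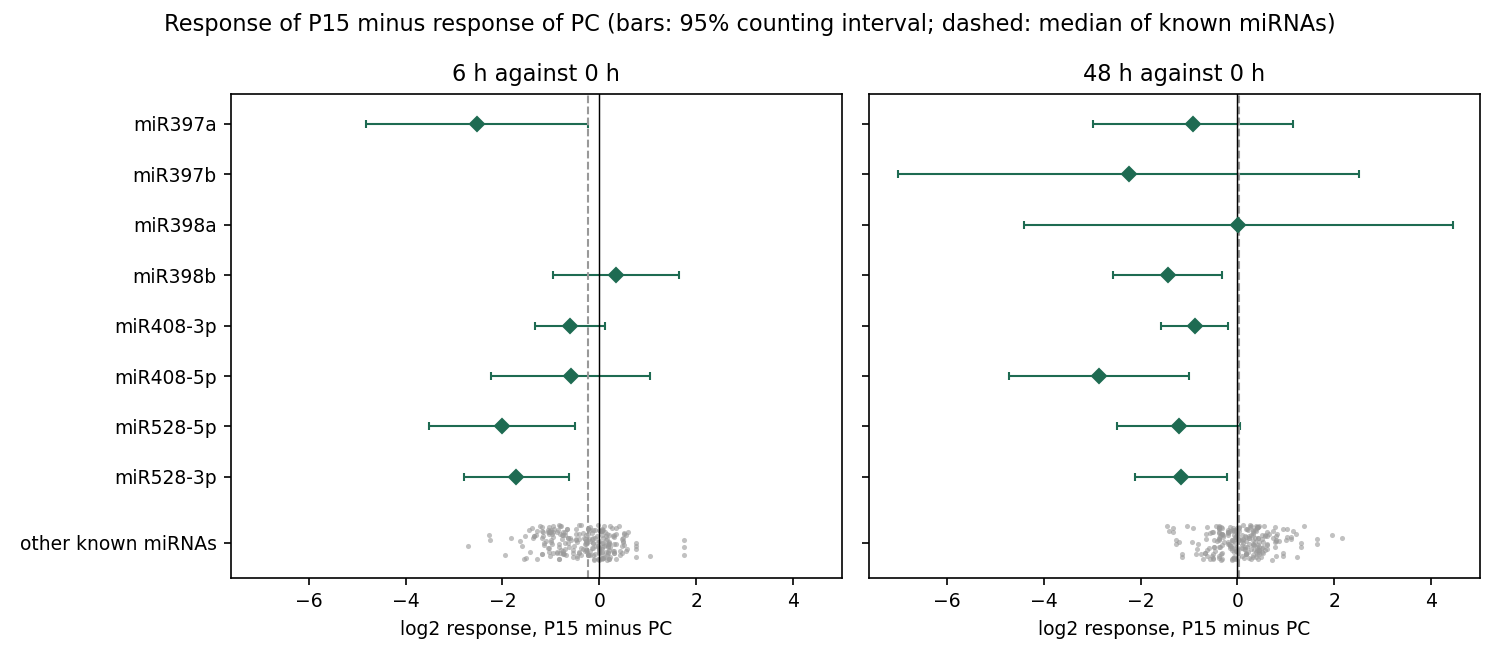
Log2 response of P15 minus that of PC (horizontal axis) at 6 h and at 48 h, with green diamonds and 95% counting intervals for the copper miRNAs and grey dots for the other known miRNAs with at least 20 reads. The dashed line is the median of known miRNAs, -0.24 at 6 h and 0.03 at 48 h, and miR408-5p lies at -2.86 at 48 h.

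The balance between the arms of 1 precursor does not depend on the library scaling. For miR528 the arm that acts on ascorbate oxidase was the minor one. miR528-5p held 27.3% (17.0 to 39.6), 31.4% (16.9 to 49.3) and 40.0% (28.5 to 52.4) of the reads of both arms in P15 at 0, 6 and 48 h, and 34.4% (18.6 to 53.2), 44.0% (30.0 to 58.7) and 49.0% (39.0 to 59.1) in PC. Over all libraries it had 140 of 355 reads (39.4%). The share was higher at 6 h than at 0 h and higher at 48 h than at 6 h in each line, and it was lower in P15 than in PC at all 3 times. All of these intervals overlap within a line and between the lines at each time. For miR408 the 3p arm held most reads, at 78.6% (69.5 to 86.1), 80.3% (68.2 to 89.4) and 91.7% (80.0 to 97.7) in P15 and 85.7% (76.4 to 92.4), 87.1% (76.1 to 94.3) and 82.0% (73.6 to 88.6) in PC. P15-48 had the highest share, with 44 reads of miR408-3p and 4 of miR408-5p.

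**Figure D4:**
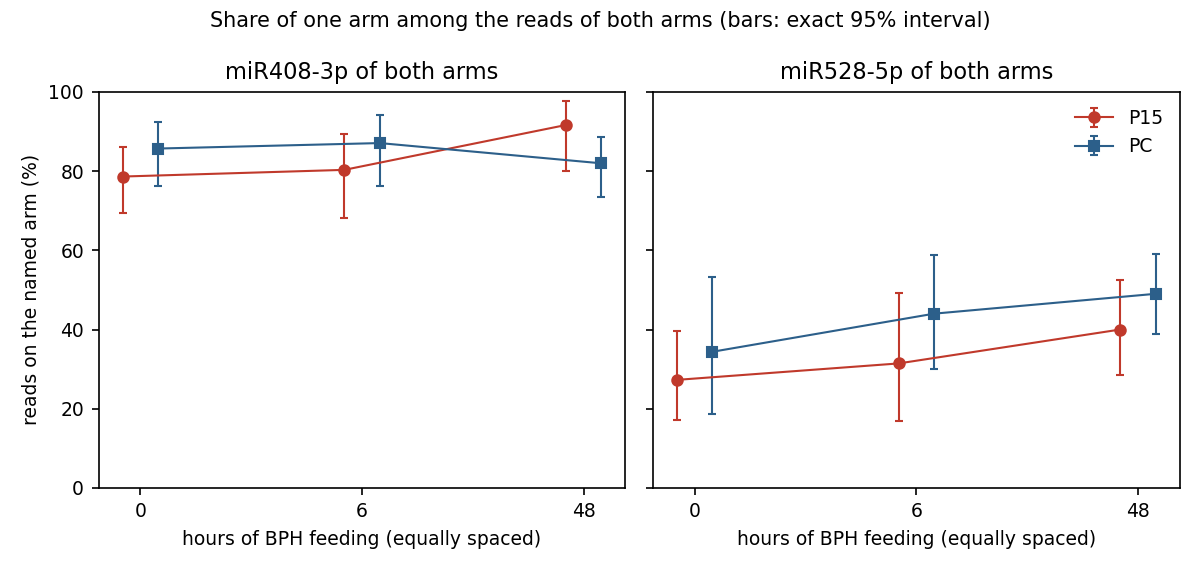
Percent of the reads of both arms that fell on miR408-3p (left) and miR528-5p (right) at 0, 6 and 48 h, with P15 as red circles, PC as blue squares and bars for the exact 95% binomial interval. miR528-5p lies between 27.3% and 49.0% and is highest at 48 h in each line, while miR408-3p lies between 78.6% and 91.7%.

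The table also holds entries of these families that the authors matched to miRNAs of other plants, and the 2 with the most reads overlap a member over nearly its whole length. They are shown for this overlap, and whether their reads come from the precursors of the members was not tested. Capitals mark the run shared with the member, bases 4 to 21 of miR397a and bases 2 to 21 of miR408-3p. miR397b has the same bases 4 to 21, so this run cannot tell miR397a from miR397b.
MIR397-x: TTGAGTGCAGCGTTGATGaact
MIR408-y: TGCACTGCCTCTTCCCTGGCtt

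MIR397-x had 10, 17 and 11 reads in P15 and 12, 14 and 8 reads in PC at 0, 6 and 48 h, or 72 in all, more than the 50 of miR397a. In P15-6, where miR397a had its lowest count of 3, MIR397-x had its highest count, 17. These counts are not scaled, and P15-6 had the largest library total, 1644065 against 1258734 in PC-6. Scaled to these totals, MIR397-x was higher in PC-6 than in P15-6. MIR408-y had 10, 4 and 6 reads in P15 and 7, 7 and 11 in PC, with its lowest count in P15-6 and its highest in PC-48. MIR528-x differs from miR528-5p by T12A and had 8 reads, and MIR528-y differs from miR528-3p by C12T and had 6. MIR408-x shares bases 1 to 19 of miR408-5p and had 2 reads. MIR398-x, MIR398-y, MIR397-y and MIR857-y, the last from another laccase-targeting family, had 12 reads or fewer each over the 6 libraries.

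The known miRNAs with the most similar pattern over the 6 libraries were found by Pearson's r of log2(TPM + 1) among 143 sequences with at least 100 reads. The points share library depth and scaling, so these are descriptions. For miR528-5p they were miR2863b (r = 0.96), miR393b-3p (0.94) and miR5794 (0.93). miR5794 had 468, 477 and 705 TPM in P15 and 487, 604 and 732 TPM in PC at 0, 6 and 48 h, so it was highest at 48 h in each line. For the sum of miR398a and miR398b the best were miR3980a-5p (0.78), miR5794 (0.75) and miR393b-3p (0.73). For miR408-3p they were miR444c.2 (0.92), miR156f-3p (0.91) and miR166j-5p (0.91), and for the sum of miR397a and miR397b miR2871a-3p (0.92), miR1865-3p (0.88) and miR169i-5p.1 (0.88).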

How the data were processed

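The small RNA of 6 libraries was sequenced by the authors, who removed low-quality reads, adaptors, other non-coding RNA, exon, intron and repeat matches, and matched the rest to miRBase. The sources used here give neither the aligner nor the mismatches allowed. The authors deposited a read count for each entry and library and the same count as TPM. The deposited TPM was treated as a score, since entries that share a mature sequence repeat the same reads and the columns sum to more than TPM allows. The authors wrote a count of 0 as 0.01 TPM, and it was read here as 0. The library total behind TPM was computed from counts and TPM of entries with at least 50 reads. Per-sample columns of other samples numbered 0.

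Counts of all known miRNAs were compared with edgeR 4.0.16 in R 4.3.3, by exactTest (dispersion 0, prior count 0.125, library totals) for 7 pairs of libraries and by glmQLFit and glmQLFTest (TMM, filterByExpr, Benjamini-Hochberg adjustment over all tested) for time and line. edgeR loads limma 3.58.1. The paper names edgeR and the thresholds, without its dispersion. Alternatives were TMM, DESeq2 1.42.0 median-of-ratios, the clean reads of the study as totals, a biological coefficient of variation of 0.2, a minimum of 20 reads, DESeq2's Wald test, no filter, identical entries once and leaving out each library. Ratios have exact conditional intervals and shares exact Clopper-Pearson intervals, at 95%. Response differences have normal intervals from the counts of 4 libraries, so a member needs a read in each of them. The exact test of PC-48/PC-0 and the line and 48 h effects of the additive fit were tried on simulated counts. Those for the exact test held counting error only, so they cannot show how its calls behave with variation between libraries. The other steps were not simulated. Python 3.11.15 with scipy 1.17.1, pandas 2.3.3, numpy 2.4.6 and matplotlib 3.10.9 did the rest. All 8 members are named, with other-plant entries of the same family numbers and of miR857, the 3 known miRNAs most similar to each family, and the 2 nutrient lists as counts. miR1320-3p and miR166c-5p were named after their values were seen. The members and lists were chosen with earlier results of these data known. The genome positions of the members are not given, since no annotation used here places them.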

Additional observations from a re-analysis of the deposited data

Results flagged for a closer look

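The responses of the lines to feeding differed for 6 members by more than their counting intervals, as log2 of P15 minus PC with the library totals. At 6 h these were miR397a (-2.52), miR528-5p (-2.01) and miR528-3p (-1.71). At 48 h they were miR398b (-1.44), miR408-3p (-0.88), miR408-5p (-2.86) and miR528-3p (-1.16). Of all known miRNAs with at least 20 reads, 52% (130) of 250 at 6 h and 42.6% (107) of 251 at 48 h also had intervals that left out 0. The members' 3 of 6 at 6 h and 4 of 8 at 48 h include members under 20 reads. Of the 5 members with at least 20 reads, miR528-5p and miR528-3p had such intervals at 6 h. At 48 h the 4 named above had them. Whether these members differ from the known miRNAs was not tested. All 7 values are below 0, and with median-of-ratios and with clean-read totals the interval of miR397a reached 0. Each rests on 1 library per line and time, and the difference was not tested against replicates. P15-0 and PC-0 enter both times, so the 2 values of miR528-3p share them, and the ratio of miR528-3p in P15-0/PC-0 was 2.15 before feeding.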

How the results depend on the processing

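Of the 12 calls of members between 2 libraries, 7 held under every alternative that gave a value. Under each of the 3 other scalings (TMM, median-of-ratios, clean-read totals), P15-6/P15-0 had 0 members called in place of 1. P15-48/P15-0 had 1 in place of 3 with the clean reads and 1 with a coefficient of variation of 0.2, as miR398b and miR528-5p lost their calls. With the clean reads the log2 fold change of each was 0.66, under the 2-fold limit. PC-6/PC-0 had 1 in place of 0 with TMM and 1 with median-of-ratios, miR528-5p. P15-0/PC-0 had 0 in place of 1 with a coefficient of variation of 0.2. P15-6/PC-6 had 1 in place of 2 with median-of-ratios, 1 with the clean reads and 1 with a minimum of 20 reads. In the additive fit for 48 h, 0 members were called in place of 2 with library totals without TMM. The number was also 0 with DESeq2 and with identical entries once. Of all known miRNAs, 6 of 281 were called in the main fit and 0 of 281 without TMM. DESeq2 called 1 of 464, and 0 of 181 were called with identical entries once. Leaving out each library gave log2 effects from 1.02 to 2.78 for miR398b and from 0.93 to 2.53 for miR528-5p, and their calls rested on particular libraries, as given above. For P15 against PC, leaving out each library gave log2 effects of miR398b from -1.11 to 0.20. Of 249 single values between 2 libraries under the alternatives, 5 changed sign, none of them called. No paired analysis was possible because each group holds 1 library and the labels give no replicate numbers. The additive fit does compare the times within each line. Beyond what is given above, why calls were lost was not tested. Depth limits miR397b, miR398a and miR397a most, with 7, 15 and 50 reads in all.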
